A study of Bos taurus with 4 samples.

Results

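Skeletal muscle genes were examined in 4 bovine RNA libraries, as a list of 49 symbols chosen for what their proteins do: fast and slow proteins of the sarcomere, calcium handling proteins, creatine kinases, myoglobin and myogenic factors. Of these, 48 had a row among the 29792 rows of the read counts, each with its own single row, and PAX7 was not analysed here. The libraries were 1 each of muscle, small intestine, intestinal organoids at passage 5 (P5) and intestinal organoids at passage 10 (P10), all from Hanwoo cattle, and the animals were over 24 months old. The organoids were grown from crypts of the jejunum, the middle part of the small intestine, in Matrigel (a gel of basement membrane proteins) with IntestiCult medium, so they were a culture started from epithelium, while the intestine and muscle libraries were made from tissue. Which muscle was sampled, and whether the libraries came from 1 animal or several, is not given in the sources used here. Each condition had 1 library, so differences could not be set against a spread between replicates and p-values are not given. Intervals below are 95% intervals that cover counting error alone, and reads copied by PCR need not be separate molecules.

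The sarcomere is the contractile unit of striated muscle, in which thick filaments of myosin pull on thin filaments of actin that are anchored at the Z disc. Troponin and tropomyosin on the thin filament switch contraction on when calcium leaves the sarcoplasmic reticulum. Muscle fibres are grouped by their myosin heavy chain: slow type I fibres use MYH7, fast oxidative type IIA fibres use MYH2, and faster, more glycolytic fibres use MYH1 or MYH4. Most other sarcomere proteins also exist as a fast and a slow form that are products of separate genes. Some relatives of these proteins, such as tropomyosins and the calcium pump SERCA2, are made by many other cell types.

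The libraries held 12917720 reads in muscle, 17776273 in intestine, 13599831 in P5 organoids and 17730571 in P10 organoids. Levels are given as reads and as CPM, the count scaled to a library of 1000000 reads. QuantSeq reads come from the 3′ end of each transcript, so counts of different genes were compared without division by length, and whether a row covers all 3′ ends of its gene was not tested. A count of 3 reads or fewer was taken as the floor, and is 0.232 CPM in muscle, 0.169 CPM in intestine and in P10 organoids, and 0.221 CPM in P5 organoids. The ribosomal RNA row RN18S1 took 23.6% of the muscle reads and 0.264% to 4.81% of the reads of the other libraries, which lowers every other CPM in muscle.

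Muscle gave 1518629 reads on the 48 genes, or 11.8% of the library (Wilson interval 11.7% to 11.8%). The same genes took 0.104% of the reads in intestine, 0.0494% in P5 organoids and 0.0836% in P10 organoids. In muscle each of the 48 genes had more than 3 reads, as did 70.2% of all 22200 rows with a read. More than 3 reads were found for 22 of them in intestine, 17 in P5 organoids and 14 in P10 organoids, where 80.9%, 75.8% and 71.9% of those rows passed the same limit. In muscle, 23 of the 48 had at least 10000 reads, 34 at least 1000 and 44 at least 100. Among the 50 highest rows of the muscle library, 19 were of this list. The label of the muscle library was therefore matched by its sarcomere genes. In the other 3 libraries these were at most a trace, apart from tropomyosins, SERCA2 and the Z disc gene MYOZ2. MYOZ2 was at 12.4 CPM in intestine, 11.1 CPM in P5 organoids and 27.1 CPM in P10 organoids.

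**Figure D1:**
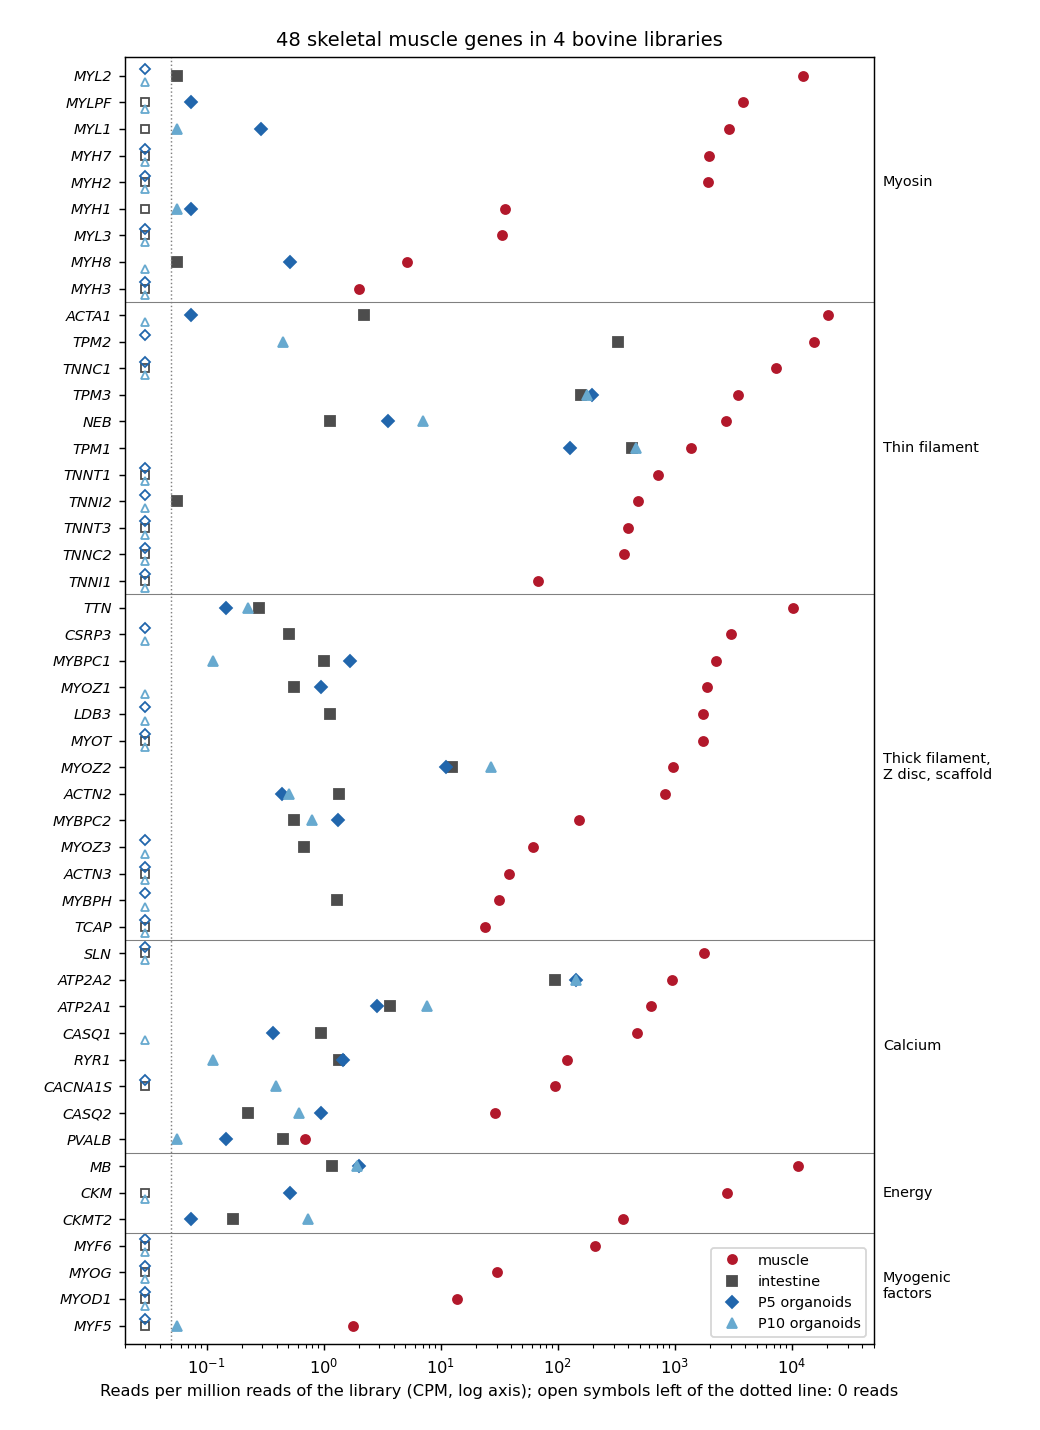
Level (CPM) of 48 skeletal muscle genes in muscle, intestine, P5 organoids and P10 organoids, on a log axis, grouped by role and ordered by level in muscle. Each symbol is 1 library and open symbols at the left mark 0 reads; muscle is the rightmost symbol in every row, from 0.697 CPM for PVALB to 20480 CPM for ACTA1.

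The highest member in muscle was ACTA1, the skeletal α-actin of the thin filament, with 264562 reads or 2.05% of the library. TPM2, the β-tropomyosin, followed with 198049 reads, MYL2, the slow regulatory myosin light chain, with 160410, MB, the oxygen store myoglobin, with 145227, and TTN, the giant spring protein titin, with 132207. These 5 genes held 59.3% of all reads on the list. By role, thin filament genes took 44.9% of the reads on the list in muscle, myosin genes 19.6%, genes of the Z disc and of the scaffold of the filaments 19.6%, the 3 energy and oxygen genes 12.2%, calcium handling genes 3.45% and myogenic factors 0.217%. Down this order the counting intervals of neighbours were apart, except for runs such as MYH7 and MYH2, or SLN, LDB3 and MYOT. The lowest member was PVALB, the calcium buffer parvalbumin of fast fibres, with 9 reads in muscle, 8 in intestine, 2 in P5 organoids and 1 in P10 organoids. PVALB was also the 1 member whose level in muscle had an interval overlapping that of intestine, at 0.697 CPM (0.367 to 1.32 CPM) and 0.450 CPM (0.228 to 0.888 CPM).

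Among the adult myosin heavy chains, the slow MYH7 and the fast MYH2 were counted at the same level. MYH7 had 25110 reads in muscle, or 1944 CPM (1920 to 1968 CPM), and no read in any other library. MYH2 had 24845 reads, or 1923 CPM (1900 to 1947 CPM), and no read elsewhere. MYH1, the fast IIX form, had only 455 reads, so MYH2 exceeded it 54.6-fold, and MYH4, the IIB form, which is not on the list, had 90. Of the 50593 reads on MYH1, MYH2, MYH3, MYH4, MYH7 and MYH8, MYH7 held 49.6% (49.2% to 50.1%), MYH2 49.1% (48.7% to 49.5%) and MYH1 0.899% (0.821% to 0.985%). The embryonic MYH3 had 26 reads and the perinatal MYH8 had 67, which are 0.0514% and 0.132% of that sum. Reads of the slow type I and the fast oxidative type IIA myosin were thus equal within counting error, and those of the faster and of the developmental forms together were under 2% of the sum. These genes share long stretches of sequence, and reads with several alignments were counted, so the low counts of MYH1, MYH4 and MYH8 beside MYH2 are uncertain. MYH6, a gene best known from the heart, had 1370 reads in muscle and is outside that sum. The split of reads between MYH6 and MYH7 was not tested.

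The light chains, which sit on the neck of the myosin head, were not counted in the proportions of the heavy chains. MYL2 had 160410 reads, or 12418 CPM, and its fast counterpart MYLPF had 49349, or 3820 CPM, so the slow form was 3.25-fold higher. The essential light chains went the other way. The fast MYL1 had 37428 reads, or 2897 CPM, against 430, or 33.3 CPM, for the slow MYL3. MYL6B, a second slow essential light chain that is not on the list and was chosen after its value was seen, had 42052 reads, and with it counted as slow the fast share of essential light chain reads was 46.8% (46.5% to 47.2%) in place of 98.9%. Outside muscle the light chains on the list were near 0, while MYL6B had 7 reads in intestine, 9 in P5 organoids and 33 in P10 organoids. MYL2 had 1 read in intestine, MYLPF 1 read in P5 organoids, MYL1 4 reads in P5 and 1 in P10 organoids, and MYL3 none.

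The 3 troponin subunits also differed among themselves. The calcium sensor of the slow and cardiac troponin, TNNC1, had 94734 reads, or 7334 CPM, and the fast TNNC2 had 4741, or 367 CPM, a 20.0-fold excess of the slow form. The tropomyosin-binding subunit was less one-sided, with 9369 reads of the slow TNNT1 and 5106 of the fast TNNT3. The inhibitory subunit was the reverse, with 6310 reads of the fast TNNI2 and 873 of the slow TNNI1, a 7.23-fold excess of the fast form. Apart from 1 read of TNNI2 in intestine, none of the 6 troponin genes had a read in intestine or in either organoid library.

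Tropomyosins, the rods along the actin filament, were dominated in muscle by TPM2, which held 75.9% of the 260800 reads on TPM1, TPM2 and TPM3. TPM3, whose muscle form is the slow α-tropomyosin, had 44846 reads and TPM1, whose muscle form is the fast one, had 17905. NEB, nebulin, the ruler of the thin filament, had 35334 reads in muscle.

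Over 12 pairs of a fast and a slow or broader form, the fast share of the reads ran from 4.47% for ACTN3 against ACTN2 to 98.9% for MYL1 against MYL3. The fast form held more reads in 5 pairs and fewer in 7. For the myosin heavy chains alone the share was 50.2% (49.8% to 50.6%), the 1 pair whose interval includes an even split. With the reads of all pairs summed, 31.8% were fast (31.7% to 32.0%), and the median of the pairs was 37.6%. The spread between the pairs was far larger than their counting intervals, and which of them follows the share of fibres in the sample was not tested. CASQ1, MYBPC1 and ACTN2 are made in both fibre types and TPM1, TPM3 and ATP2A2 in many tissues, so those pairs mark fibre type only loosely.

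**Figure D2:**
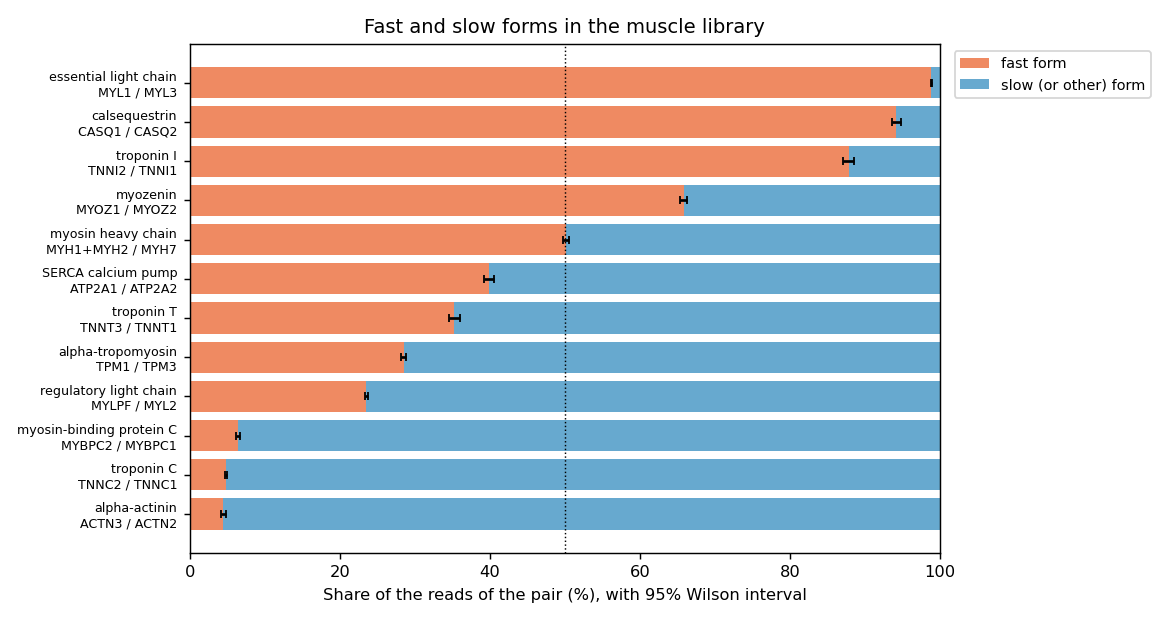
Share of reads on the fast form (orange) and the slow or broader form (blue) of 12 pairs of genes in the muscle library, in percent of the reads of the pair, with 95% Wilson intervals as black bars. The pairs run from 4.47% fast for α-actinin to 98.9% fast for the essential light chain, and the myosin heavy chains lie on the dotted line of an even split at 50.2%.

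Genes of the Z disc and of the scaffold ran from 10234 CPM for TTN to 23.8 CPM for TCAP. CSRP3, the muscle LIM protein, had 39369 reads in muscle, and MYBPC1, the slow myosin-binding protein C, had 28800 against 1979 for the fast MYBPC2. MYOZ1, a calcineurin-binding Z disc protein of fast fibres, had 24181 reads and its slow relative MYOZ2 had 12535, while MYOZ3 had 789. LDB3 (22678 reads) and MYOT (22602 reads), which bind α-actinin at the Z disc, were at the same level within counting error. The actin crosslinker ACTN2 had 10684 reads and ACTN3, the α-actinin of the fastest fibres, had 500, or 38.7 CPM. MYBPH had 404 reads. TCAP, the cap of titin at the Z disc, had 307 reads against 132207 for titin itself.

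Calcium handling genes held both fast and slow forms. SLN, sarcolipin, a small inhibitor of the SERCA pumps, was the highest with 22763 reads, or 1762 CPM, and had no read in the other libraries. The slow pump ATP2A2 (SERCA2) had 12172 reads and the fast pump ATP2A1 (SERCA1) had 8096, a fast share of 39.9%. Of the calsequestrins, which store calcium in the reticulum, CASQ1 had 6137 reads and the slow and cardiac CASQ2 had 377. RYR1, the calcium release channel, had 1565 reads, and CACNA1S, the voltage sensor that opens it, had 1235. PVALB, at 9 reads, stood apart as the lowest of this group.

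CKM, the cytosolic creatine kinase that rebuilds ATP beside the myofibrils, had 36108 reads in muscle and its mitochondrial partner CKMT2 had 4662. MB had 11242 CPM, the highest level of this group. Genes of oxidative and of glycolytic energy use were looked at as further lists of 10 each. Of the oxidative genes, 7 were at least 2-fold higher in muscle than in intestine and none was lower, where 26.4% of all rows compared were called higher and 26.7% lower. They were led by FABP3, the fatty acid carrier of muscle, with 14332 reads in muscle and 194 in intestine, COX6A2, a muscle subunit of cytochrome c oxidase, with 10128 and 0, and COX7A1, another, with 4596 and 190. Of the glycolytic genes, 9 were higher and none lower, beside the same 26.4% and 26.7%, led by ALDOA, an aldolase, with 11847 reads and 2913, ENO3, the muscle enolase, with 7330 and 11, and PYGM, muscle glycogen phosphorylase, with 5552 and 44. Scaled by library totals (CPM), 6 oxidative and 8 glycolytic genes were called higher. With CPM, 2002 of all 17559 rows compared were called higher and 9969 lower. Against the organoids the glycolytic list was less one-sided, with 7 higher and 1 lower in muscle against P5 organoids (27.3% and 31.7% of all rows) and the same counts against P10 organoids (28.5% and 33.9%). PKM, a pyruvate kinase, was at 309 CPM in muscle but at 1126 CPM (P5) and 1043 CPM (P10) in the organoids, and ALDOA was at 917 CPM beside 1039 and 973 CPM. The summed levels in muscle were 2887 CPM for the oxidative and 3197 CPM for the glycolytic list.

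Other genes of striated muscle were as clearly present. Of 30 such genes, 29 had enough reads to be compared and each was called higher in muscle than in intestine, by 2-fold or more, under 4 scalings of the reads, beside 26.4% of all rows with quantile normalisation. They were led by CRYAB, a small heat shock protein that guards the myofibril, with 187690 reads in muscle, KLHL41, a sarcomere assembly factor, with 33396, and DES, the intermediate filament desmin, with 28404. Myostatin (MSTN), the exception, had 6 reads in muscle. In intestine 19 of the 30 had more than 3 reads and 8 had none. Genes of this list that reached 10 reads in muscle only could be called higher in muscle or not at all. Of 8 genes best known from the heart, ACTC1, the cardiac α-actin, had 6498 reads in muscle and MYH6, the α-myosin heavy chain, had 1370, while TNNI3 had 7, MYBPC3 had 1 and the other 4, among them TNNT2 and NPPA, had none. MYBPC3 and TNNT2 had 44 and 24 reads in P10 organoids, and 9 and 7 in P5 organoids. Of 10 transcription factors linked to fibre type, 9 were higher in muscle than in intestine by 2-fold or more, beside 26.4% of all rows. With CPM it was 8, where 2002 of all 17559 rows compared were called higher and 9969 lower. In intestine 7 of the 10 factors had more than 3 reads and 2 had none. MEF2C, a partner of the myogenic factors, had 7302 reads and MEF2A, expressed in many tissues, had 745 beside 789 in intestine. SOX6, a repressor of slow fibre genes, was within 2-fold (log2 difference 0.15) and was lower than in intestine with CPM (-0.62).

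The myogenic factors are the transcription factors that start and keep the muscle programme. MYF6 (MRF4), the factor of mature fibres, was by far the highest of the 4 analysed, with 2698 reads in muscle, or 209 CPM. MYOG, which acts at differentiation, had 395 reads, MYOD1, the determination factor, had 178, and MYF5, a factor of satellite cells and early precursors, had 23. None of the 4 had a read in intestine or P5 organoids, and 1 read of MYF5 was the only one in P10 organoids. Of genes raised in developing, regenerating or denervated muscle, CHRNA1, a subunit of the acetylcholine receptor, had 1152 reads in muscle, the adhesion protein NCAM1 526 beside 266 in intestine, and CHRNG, the fetal receptor subunit, 29. With MYH3 and MYH8, all 5 of this list were called higher in muscle than in intestine, beside 26.4% of all rows. All but NCAM1 reached 10 reads in muscle only, so those could be called higher in muscle or not at all. In muscle the proliferation genes MKI67 and CCNB1 had no reads, TOP2A had 13 and PCNA 172.

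Differences between libraries were computed on quantile-normalised counts, as log2(value + 1), for rows that reached 10 reads in 1 or both libraries compared, and called at 2-fold or more. Against intestine, 47 of the 48 members were called higher in muscle and PVALB could not be compared, where 26.4% of all 17559 rows compared were called higher and 26.7% lower. Against P5 organoids the same 47 were called higher, with a background of 27.3%, and against P10 organoids again 47, with a background of 28.5%. Of the 47, 29 reached 10 reads in muscle only when set against intestine, 35 against P5 organoids and 37 against P10 organoids. Those could be called higher in muscle or not at all. All 47 were also called higher after scaling by CPM, by the TMM method or by the upper quartile. Their median log2 difference, with libraries at the floor set to 3 reads, was 10.27 against intestine, 10.16 against P5 organoids and 9.22 against P10 organoids, beside medians over all rows compared of 0.00, -0.13 and -0.19. The smallest difference from intestine was that of TPM1, 1.75 (1.70 to 1.78), followed by ATP2A2, 3.59 (3.51 to 3.66), TPM3, 4.31 (4.25 to 4.40), and TPM2, 5.21 (5.16 to 5.25). TNNC1 had no read in intestine, and its log2 difference with intestine set to 3 reads was 15.24, and between 14.94 and 16.10 with the other 3 scalings. In tissue, fewer muscle cells and less muscle RNA per cell cannot be told apart.

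The reads found outside muscle were concentrated in TPM1, TPM2, TPM3 and ATP2A2, which held 97.0% of the reads on the list in intestine, 94.2% in P5 organoids and 94.3% in P10 organoids, against 18% in muscle. The other 44 genes together had 555 reads in intestine, 389 in P5 organoids and 841 in P10 organoids, which is 0.0324%, 0.0297% and 0.0492% of their muscle CPM. At 0 reads in all 3 were 16 of the 48 genes, among them MYH2, MYH7, TNNC1, SLN, MYOT and MYF6. These traces did not keep 1 ratio to muscle. Of the 30 members other than those 4 with at least 1000 reads in muscle, 13 were at 0 in intestine, 14 in P5 organoids and 18 in P10 organoids. TNNC1, with 0 reads in intestine, would be at 0.00230% of its muscle CPM at the floor of 3 reads. In the same library TTN was at 0.00275% (0.000892% to 0.00641%), ACTA1 at 0.0107% (0.00762% to 0.0146%), and MYOZ2 at 1.28% (1.11% to 1.46%).

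**Figure D3:**
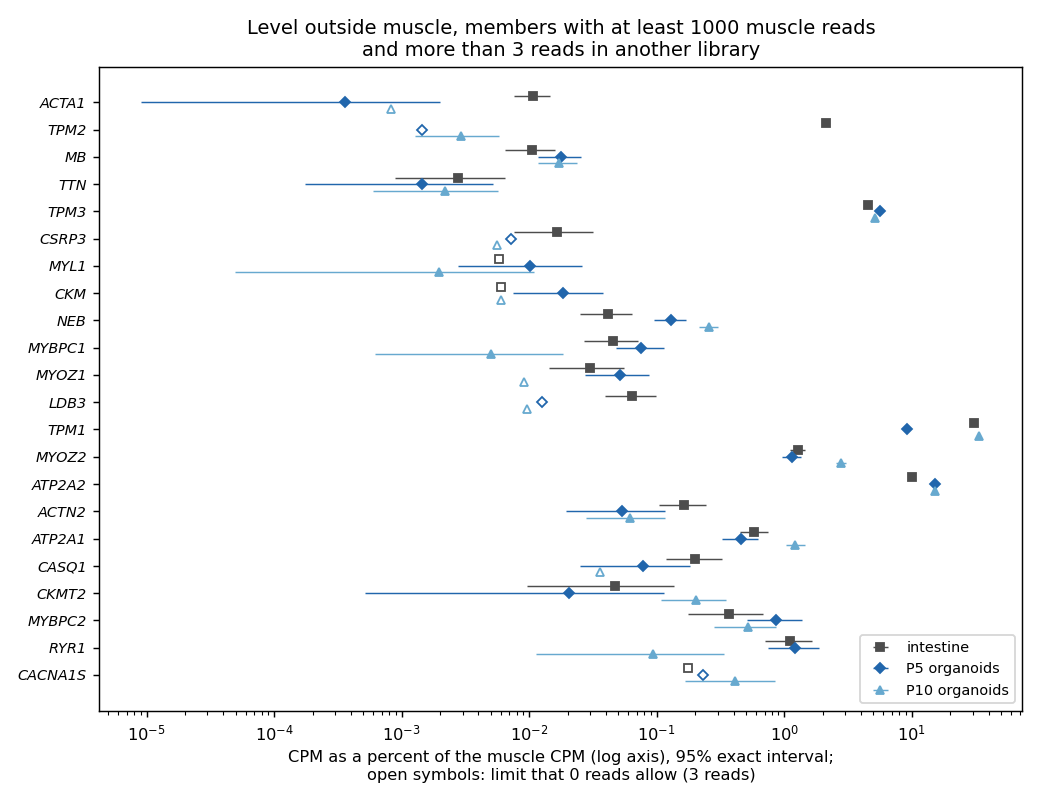
CPM in intestine, P5 organoids and P10 organoids as a percent of the muscle CPM, on a log axis, for members with at least 1000 reads in muscle and more than 3 in another library, ordered by level in muscle. Bars are 95% exact intervals and open symbols mark 0 reads, drawn at the value of 3 reads. TPM1 reaches 33.7% in P10 organoids, while TTN stays near 0.00220% to 0.00275% in intestine and P10 organoids.

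In intestine the 3 tropomyosins were the main signal. TPM1 had 7596 reads, or 427 CPM, TPM2 5806, or 327 CPM, and TPM3 2815, or 158 CPM. TPM1 was the leading tropomyosin there, with 46.8% of the 3 genes (46.1% to 47.6%), against 6.87% in muscle. Contractile genes of smooth muscle were, like TPM2, high in intestine and low in the organoids. Their list of 10 genes summed to 3731 CPM in intestine, 2919 CPM in muscle, 65.6 CPM in P5 and 64.4 CPM in P10 organoids. Without DES and SYNPO2, which striated muscle also makes and which were left out after their values were seen, the other 8 summed to 3174 CPM in intestine and 114 CPM in muscle, and the organoids held 62.2 CPM (P5) and 58.9 CPM (P10). Of the list of 10, ACTG2 and LMOD1 were at 0 in both organoid libraries. MYLK had the most reads of the list in P5 organoids, 487, and SMTN in P10 organoids, 823. The part of smooth muscle in the intestinal TPM1 and TPM2 reads was not tested. Of the members best known from striated muscle, MYOZ2 had 220 reads in intestine, or 12.4 CPM, and ATP2A1 65, or 3.66 CPM. They were followed by ACTA1 with 39, ACTN2 and RYR1 with 24 each, MYBPH with 23 and MB with 21, at 2.19 CPM or less.

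TPM2 was almost missing from the organoids, with 0 reads in P5 and 8 in P10 organoids. Against intestine its log2 difference in P5 organoids, set to 3 reads, was -10.27, and between -10.28 and -10.16 with the other 3 scalings, and its log2 difference in P10 organoids was -8.77 (-9.41 to -8.09). TPM1 and TPM3 had over 1000 reads in both, and TPM1 differed between the passages. TPM1 had 1731 reads in P5 organoids, or 127 CPM (121 to 133 CPM), and 8280 in P10 organoids, or 467 CPM (457 to 477 CPM), beside 427 CPM in intestine. The sign of the difference between P10 organoids and intestine turned with scaling, from -0.05 to 0.13 with CPM. The log2 difference of P10 and P5 organoids was 1.94 (1.87 to 2.02), and lay between 1.77 and 1.87 with the other 3 scalings. TPM3 was within 2-fold in all 3, with 195 CPM in P5 organoids, 179 CPM in P10 organoids and 158 CPM in intestine. TPM1 therefore held 39.5% of the tropomyosin reads in P5 organoids (38.1% to 41.0%) and 72.3% in P10 organoids (71.5% to 73.1%). ATP2A2, the housekeeping calcium pump of the endoplasmic reticulum, had 1948 reads in P5 organoids and 2533 in P10 organoids, or 143 CPM in both, and 94.8 CPM in intestine.

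**Figure D4:**
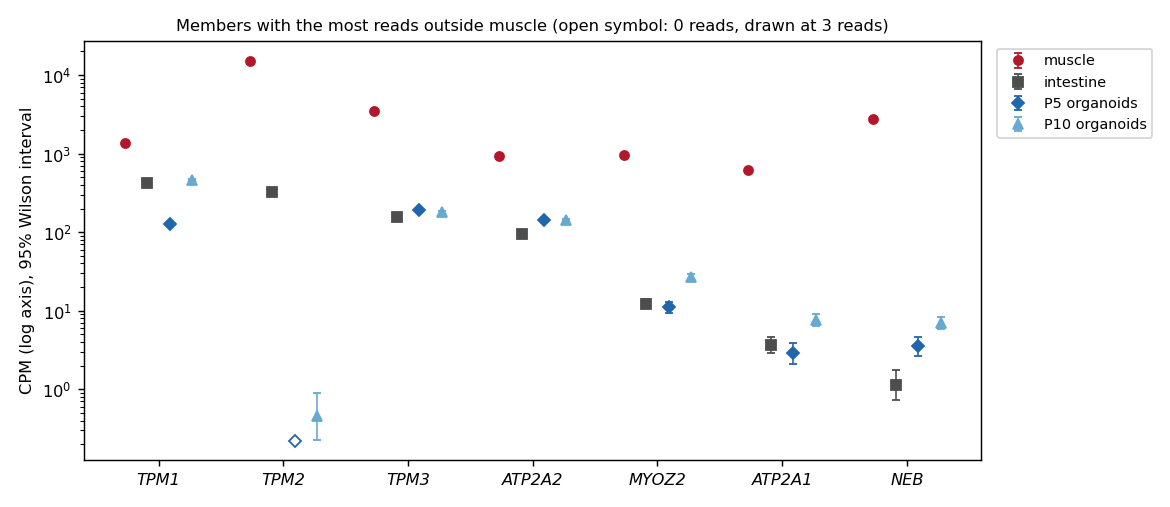
CPM of the 7 members with the most reads outside muscle, on a log axis, with 95% Wilson intervals; each symbol is 1 library, and the open symbol for TPM2 in P5 organoids marks 0 reads, drawn at the level of 3 reads. TPM1 is lower in P5 organoids (127 CPM) than in intestine (427 CPM) and P10 organoids (467 CPM), and TPM2 is at 327 CPM in intestine and 0.451 CPM in P10 organoids.

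Of members with mainly striated use, MYOZ2, ATP2A1 and NEB had the most organoid reads. MYOZ2 had 220 reads in intestine, 151 in P5 organoids and 481 in P10 organoids, or 12.4, 11.1 and 27.1 CPM. ATP2A1 had 65, 39 and 136 reads, or 3.66, 2.87 and 7.67 CPM. NEB had 20, 48 and 124 reads, or 1.13, 3.53 and 6.99 CPM. By CPM all 3 were higher in P10 organoids than in P5 organoids and intestine, with intervals that did not overlap. By the 2-fold rule MYOZ2 was within 2-fold between P10 organoids and intestine (log2 difference 0.99) except with CPM, and NEB between the passages (0.79) with all 4 scalings. ATP2A1 was called higher in P10 organoids than in intestine (1.48), but not with TMM or upper-quartile normalisation. Each remained far under its muscle level, at 2.80%, 1.22% and 0.256% of it in P10 organoids.

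Other members with traces outside muscle did not share 1 order of the libraries. MB had 21 reads in intestine, 27 in P5 organoids and 34 in P10 organoids, each under 2 CPM. The myosin-binding proteins MYBPC1 and MYBPC2 had 18 and 10 reads in intestine, 23 and 18 in P5 organoids, and 2 and 14 in P10 organoids. RYR1 had 24, 20 and 2 reads and CASQ1 17, 5 and 0, in the same order of libraries. In intestine and P5 organoids these counts put RYR1 at 1.11% and 1.21% of its muscle CPM, and the interval in P5 organoids (0.739% to 1.88%) overlapped that of MYOZ2 (0.968% to 1.34%).

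Against intestine, 19 members could be compared in P5 organoids, and 7 were called higher and 5 lower, beside 24.9% and 20.4% of all rows. The split depended on scaling, since CPM gave 3 higher and 8 lower, TMM 2 and 8, and upper-quartile normalisation 3 and 8. The calls over all rows shifted too, from 4426 higher and 3630 lower to 3775 and 4380 with CPM. They were 3227 and 4750 with TMM, and 3304 and 4683 with upper-quartile normalisation. Called under all 4 scalings were NEB and CASQ2 as higher, and TPM1, TPM2, ACTA1, MYBPH and LDB3 as lower. In P10 organoids 20 could be compared, and 6 were called higher and 2 lower, beside 27.8% and 21.6% of all rows. CPM gave 5 and 10, and TMM or upper-quartile normalisation 3 and 10. Over all rows, 4957 were higher and 3844 lower with quantile normalisation, and 4717 and 5026 with CPM. These counts were 3880 and 5576 with TMM, and 3846 and 5612 with upper-quartile normalisation. Under all 4 scalings NEB, CASQ2 and CKMT2 were higher and TPM2 and ACTA1 lower. CASQ2 and CKMT2 rested on 13 reads or fewer in each of these libraries. Few reads also lay behind the lower calls of ACTA1, MYBPH and LDB3. ACTA1 had 39 reads in intestine, 1 in P5 organoids and 0 in P10 organoids. MYBPH had 23 reads in intestine and LDB3 20, and both had 0 in the organoids. Reads with several alignments were counted, and whether reads of other actin genes are among those of ACTA1 was not tested. These comparisons share the intestine library. Between the passages, 13 members could be compared. TPM1, MYOZ2, ATP2A1 and CKMT2 were called higher in P10 organoids, and MYBPC1, RYR1 and MYOZ1 lower, under all 4 scalings, beside 16.1% of all rows called higher and 15.5% lower. MYBPC1 had 23 reads in P5 and 2 in P10 organoids, RYR1 20 and 2, and MYOZ1 13 and 0, so the lower calls rested on few reads.

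Some members overlap or adjoin other genes, and the counting is not stated to use strand, so reads of such genes cannot be told apart. Of the 48 symbols, 47 are named in RefSeq for ARS-UCD2.0, an assembly that may differ from the assembly the reads were counted on and is used for neighbours only. There ATP2A1 overlaps RABEP2, a regulator of endosome fusion, which had 6425 reads in muscle beside 8096 of ATP2A1, and 165 in intestine, 201 in P5 organoids and 604 in P10 organoids. In the organoids RABEP2 and ATP2A1 were thus both higher at P10. MYOZ1 overlaps SYNPO2L, with 5471 reads in muscle and 0 in each of the other libraries. MYOZ2 overlaps the long non-coding LOC101906469, with 21521 reads in muscle, 3693 in intestine, 287 in P5 organoids and 639 in P10 organoids. NEB overlaps LOC112442618, with 3418, 11, 2 and 46 reads in the same order. CASQ1 overlaps LOC101902959, with 6459 reads in muscle beside 6137 of CASQ1. TTN overlaps LOC112442546, which had 50044 reads in muscle and 33, 14 and 4 elsewhere. TPM3 overlaps NUP210L, with 426, 1091, 1257 and 1711 reads in that order of libraries, and UBAP2L, with 196, 537, 749 and 1142. ATP2A2 overlaps ANAPC7, with 396, 464, 452 and 798 reads. The part of shared reads in the counts of TPM3, ATP2A2, ATP2A1, MYOZ2 and NEB outside muscle was not tested. Nor was it tested in muscle, where MYOZ1, MYOZ2, CASQ1 and ATP2A1 enter the fast shares of their pairs. These neighbours were looked up after the values were seen.

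Of the markers of other cells, stromal genes had the highest summed level in muscle after those shared with smooth muscle. The epithelial list of 8 genes summed to 40.3 CPM in muscle, with FABP2 at 245 reads and VIL1, KRT18 and ALPI at 0, and to between 7522 CPM and 10071 CPM in the other libraries. Stromal genes summed to 1206 CPM in muscle and 998 CPM in intestine, led in muscle by DCN, a proteoglycan of connective tissue, with 9481 reads or 734 CPM, and to 3.68 CPM and 0.282 CPM in the organoids. Adipocyte genes summed to 143 CPM in muscle, of which LPL held 75.3 CPM and ADIPOQ 15.3 CPM. The same list summed to 22.7 CPM in intestine, 128 CPM in P5 organoids and 129 CPM in P10 organoids, so its sum was not particular to muscle. LPL led it in the organoids too, with 1716 reads in P5 and 2279 in P10 organoids beside 973 in muscle. CIDEC led it in intestine, with 223 reads, and was lower in muscle than there (log2 difference -0.97, and -2.31 with CPM). Endothelial genes gave 46.7 CPM, immune genes 27.5 CPM and blood genes 1.47 CPM in muscle. Messenger RNA of the 13 mitochondrial genes took 17.6% of the muscle reads, 16.8% in intestine, 13.0% in P5 and 7.09% in P10 organoids.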

How the data were processed

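RNA of 4 bovine samples was sequenced as QuantSeq 3′ mRNA-Seq libraries on a NextSeq 500. The authors aligned the reads with Bowtie2 and took coverage per gene with Bedtools, from unique as well as multiple alignments. The authors deposited raw read counts for each gene. The genome build is not given in the sources used here. The members and lists were chosen with earlier results of these data known. All members were named, and of the other lists the 3 genes with the most reads in muscle and those that a statement rests on. One gene of these lists is not reported here.

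The 22200 rows with a read in any of the 4 libraries were quantile-normalised, as the methods name this normalisation, giving tied counts the mean of their ranks, and differences were taken of log2(value + 1). Rows with at least 10 reads in either library were compared, and called at 2-fold, with a library at 3 reads or fewer set to 3 reads. Intervals of differences combine the exact 95% Poisson bounds of both counts, carried through the normalisation. Shares and CPM have Wilson intervals, and ratios of CPM exact conditional binomial ones. With 1 library per condition nothing was tested. CPM, TMM and upper-quartile normalisation, other pseudocounts and filters were tried as alternatives. The calculations were tested on simulated data, where only rows with many expected reads were scored, so counts near the floor were not covered. Quantile normalisation was computed in Python and compared with that of limma 3.58.1. The factors of TMM and upper-quartile normalisation came from edgeR 4.0.16 in R 4.3.3. Intervals and figures used scipy 1.17.1, pandas 2.3.3, numpy 2.4.6 and matplotlib 3.10.9 under Python 3.11.15.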

Additional observations from a re-analysis of the deposited data

How the results depend on the processing

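No paired analysis was possible because each condition has 1 library and replicate numbers only name samples, and no library could be left out for the same reason. The median log2 difference of the members of muscle against intestine, 10.27, was 9.19 with CPM and 9.54 with a pseudocount of 5. That of muscle against P10 organoids, 9.22, was 10.98 with TMM, 11.14 with upper-quartile normalisation, 8.59 with a pseudocount of 5 and 9.08 with only rows of at least 10 reads in any library. That of P5 organoids against intestine, 0.025, was -0.33 with TMM and -0.30 with upper-quartile normalisation, and that of P10 organoids against intestine, 0, was -0.59 with CPM, -0.82 with TMM and -0.83 with upper-quartile normalisation. The number of members at least 2-fold different between P10 organoids and intestine, 8, was 15 with CPM and 13 with TMM or upper-quartile normalisation. Over all rows the balance of calls also turned from higher to lower with these scalings. These organoid comparisons rest on genes with few reads, where quantile normalisation gives a single read a log2 value of 2.09 in muscle and P10 organoids, but 0.81 in P5 organoids and 0.32 in intestine. With CPM the median of all rows compared was -1.25 for muscle against intestine, so CPM differences from muscle are to be read against that shift.

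Leaving RN18S1 out of the totals gave the members 15.4% of the reads in muscle, 0.108% in intestine and 0.0519% in P5 organoids, and without TPM1, TPM2, TPM3 and ATP2A2 the shares were 9.64%, 0.00312%, 0.00286% and, in P10 organoids, 0.00474%. The pooled fast share, 31.8%, was 37.6% as the median of the pairs, 32.6% without the tropomyosin, SERCA and actinin pairs, and 29.7% with MYL6B added to MYL3, which was chosen after seeing the data. Relative to muscle, the other 44 members were at 0.0160% in intestine, 0.0130% in P5 organoids and 0.0206% in P10 organoids with TMM, and at 0.0258%, 0.0238% and 0.0377% without RN18S1. The counts of members higher in muscle than each other library were 47 under all alternatives.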
